A study of Mus musculus with 8 samples.

Results

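The genes described here are 10 core components of the Hedgehog pathway, listed by name: Ptch1 and Smo (the receptor and the transducer it inhibits), Boc, Cdon and Gas1 (co-receptors), Hhip (a decoy receptor), Sufu (a cytoplasmic inhibitor) and Gli1, Gli2 and Gli3 (the transcription factors). They are 10 of the 21938 protein-coding genes annotated on chromosomes 1 to 19, X and Y in GENCODE M21. SOX9 coverage was read over the start site with 1 kb on each side (the promoter window), over the gene body, and over the gene body with 20 kb on each side (the locus), on mm10 (GRCm38). Astrocyte enhancer A4, which lies in an intron of Gli3, was read as well.

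The study profiled SOX9, a transcription factor of astrocytes and other glia, by CUT&Tag, in which antibodies bring a transposase to a chromatin protein so that nearby DNA is cut, tagged and sequenced. Nuclei stained with 7AAD were sorted from frozen 5 mm spinal cord segments of wild-type mice, either uninjured or taken 1 day after a contusion (1 d.p.i., called injured below). For both conditions there was 1 sample from a male (M) and 1 from a female (F). The labels give neither strain nor age, while the study's methods name C57BL/6 as the wild-type strain and state ages for the study as a whole. The secondary-only control of a sample took 20% of its 150000 nuclei and no SOX9 antibody, giving 8 libraries in 4 groups of 2. These are nuclei of the whole tissue, so fewer nuclei of a cell type and less SOX9 signal per nucleus cannot be told apart.

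Hedgehog ligands bind PTCH1, which otherwise keeps SMO inactive. Active SMO signals from the primary cilium to release GLI proteins from SUFU, so that GLI2 and GLI3 are no longer processed into repressors and GLI target genes, Gli1 and Ptch1 among them, are transcribed. The pathway patterns the ventral neural tube in the embryo, and in the adult central nervous system astrocytes are among the cells that respond to it.

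The deposited coverage was read as fragment depth without scaling, a reading taken from its pattern. On this reading the SOX9 libraries held 1891276 (uninjured M), 7216730 (uninjured F), 2529356 (injured M) and 2385009 (injured F) fragments. The controls held 22752 (uninjured M), 46846 (uninjured F), 52950 (injured M) and 10906 (injured F). The deepest SOX9 library was thus 3.82 times as deep as the shallowest, which in turn was 35.7 times as deep as the deepest control. All values below are relative coverage, the mean coverage of a window over the mean coverage of its library, so that 1 is the library mean. A promoter window at the library mean would hold 10.3 fragments in the 4 SOX9 libraries together and 0.0980 in the 4 controls. Differences between conditions are differences of mean log2(relative coverage + 0.5), with limma's standard error (SE), and p-values were adjusted over all genes tested.

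The 10 loci spanned a wide range of SOX9 coverage, from Sufu, with a mean of 5.47 over the 4 SOX9 libraries, to Gli3, with 0.444. None of the 10 passed the test in either direction: limma called 0 of 10 members at their locus, against 15 of 21852 genes tested (0.0686%), and 1 of 10 had an unadjusted p under 0.05, as did 654 (2.99%) of all loci. Among these loci Gli2 had the smallest adjusted p from limma, 0.684. At promoter windows 0 of 10 members were called, against 1 of 18195 (0.0055%), with 0 of 10 at an unadjusted p under 0.05, as against 329 (1.81%) of all promoter windows. At gene bodies limma called 0 of 10, against 0 of 21185 (0%), with 1 of 10 members and 799 (3.77%) of all tested genes at an unadjusted p under 0.05. The counts over all genes depended on the fit: the 15 loci were 0 with trimmed mean scaling and 245 without uninjured M, and a replicate block for sex gave 239 gene bodies, 0 of them members.

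Directions were mixed. At loci 5 members lay above 0 and 5 below, with a median log2 difference of 0.01 against -0.02 over all genes tested, and at promoter windows the medians were -0.03 and -0.07. Neither median of the members kept its sign when single libraries were left out. That of the loci was 0.056 without uninjured M, -0.038 without uninjured F, -0.082 without injured M and 0.084 without injured F. Over all genes tested the locus median was -0.046, 0.027, -0.020 and -0.015 in the same order. The members' promoter median was -0.295, 0.337, -0.649 and 0.209, against -0.464, 0.290, -0.152 and 0.048 over all promoter windows. Both 1 d.p.i. libraries lay above both uninjured libraries at 2 of 10 loci, Gli2 and Gas1, where 12.4% of all tested loci did so. Both lay below at 2 of 10 loci, Gli1 and Cdon, against 11.9%. At promoter windows 2 members lay above, Gli3 and Gas1, against 8.44%, and 0 lay below, against 14.7%. The M and F differences had opposite signs at 6 of 10 loci, against 66.4% of all loci, and at 7 of 10 promoter windows, against 64%.

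In order of mean locus coverage the genes were Sufu (5.47), Smo (3.83), Gli1 (2.78), Ptch1 (2.73), Gli2 (1.36), Boc (1.22), Cdon (1.04), Gas1 (0.988), Hhip (0.792) and Gli3 (0.444). The median over all genes tested was 1.49, so that 4 members lay above it. The 4 libraries of Smo all lay above those of Gli1, those of Ptch1 above those of Gli2, and those of Hhip above those of Gli3. The libraries of all other neighbours in this order overlapped. Without its highest 1-kb tile Smo had a mean of 2.18 and stood below Gli1 and Ptch1.

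**Figure D1:**
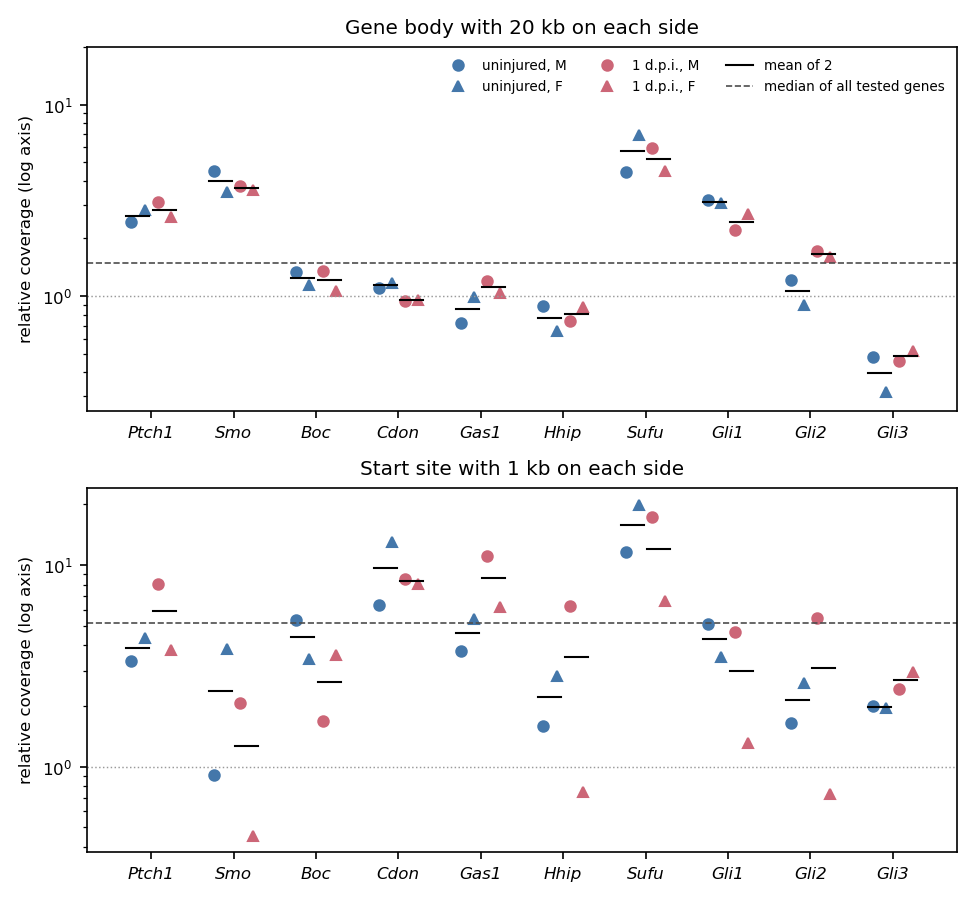
Relative coverage (log axis, 1 is the library mean) of the 10 genes in the 4 SOX9 libraries, over the locus (top) and the promoter window (bottom), with symbols for single libraries, bars for the mean of 2, a dashed line at the median of all tested genes and a dotted line at 1. At loci Sufu lies highest and Gli3 lowest, and the libraries of a gene lie closer together at loci than at promoter windows, except for Gli3.

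Pooled over libraries, the secondary-only controls, at their low depth, did not separate from the SOX9 libraries at these loci. Counting pooled fragments, 0 of 10 loci had exact Poisson 95% intervals that lay apart, intervals that cover counting error only. The Sufu locus held 4118 SOX9 fragments, 6.07 times the number at the library mean (interval 5.88 to 6.26), and 34 control fragments, 5.26 times (3.65 to 7.36). At the Gli3 locus 647 SOX9 fragments were 0.410 times the number at the mean (0.379 to 0.443), and 8 control fragments were 0.533 times (0.230 to 1.05). Sufu was the highest of the 10 in both. Within the injured F sample the Sufu intervals lay apart, with the control higher. There 8 control fragments gave 15.2 times the number at the mean (6.54 to 29.9), against 4.65 times (4.27 to 5.06) for SOX9. At promoter windows the controls held 3 fragments for Sufu, 2 for Ptch1 and 0 for the other 8 genes, where a count of 0 allows up to 37.6 times the number at the library mean. That is above the SOX9 value of each of the 10 windows (highest 19.5, at Sufu), so the intervals of those 8 could not lie apart. Within the injured F sample the Sufu window had 2 control fragments (interval 30.3 to 902). Its SOX9 interval of 5.66 to 15.5 lay apart from this, with the control higher. Of 97 isolated control fragments in the 10 loci, 88 (90.7%) matched a fragment of a SOX9 library at both ends, 22 of them in the library of the same sample, and 0 matched after a shift of 100 bp. Most isolated control fragments here thus coincide with SOX9 fragments, and the cause was not tested. The control values are therefore not taken as an independent background, and the comparison does not show whether antibody and control differed.

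Ptch1, the Hedgehog receptor and itself a GLI target, lies on chr13:63508328-63573598 (minus strand), and its locus also holds part of Fancc. Its locus had a relative coverage of 2.44 in uninjured M, 2.81 in uninjured F, 3.09 in injured M and 2.57 in injured F. The injured M library was the highest, the injured F library lay between the uninjured ones, and the groups overlapped. The means were 2.63 ± 0.258 (SD, n = 2) uninjured and 2.83 ± 0.362 at 1 d.p.i., a log2 difference of 0.09 ± 0.23 (SE) that turned to -0.021 without injured M. The promoter window read 3.36 and 4.36 in uninjured M and F and 8.09 and 3.79 at 1 d.p.i., again with only the injured M library standing above the rest. Of its 106 tiles of 1 kb, 28 reached 3 times the library mean. The highest, chr13:63567001-63568000 in an intron, read 16.9, 15.4, 10.7 and 14.6 in uninjured M, uninjured F, injured M and injured F. It lies 6.10 kb inside the gene body, upstream of the start site that RefSeq gives for Ptch1.

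Smo, the transducer that PTCH1 holds inactive, lies on chr6:29735503-29761365 (plus strand), with Tspan33 and Ahcyl2 reaching into its locus. Its locus read 4.53 in uninjured M, 3.50 in uninjured F, 3.74 in injured M and 3.56 in injured F. The uninjured libraries enclosed both injured ones, with a log2 difference of -0.11 ± 0.27 that was 0.056 without uninjured M. Much of this coverage came from a single intronic tile, chr6:29748001-29749000, of which 99.6% is repeat-masked. That tile read 173 in uninjured M, 63.6 in uninjured F, 89.3 in injured M and 118 in injured F, from 92, 140, 75 and 85 fragments. It was 4.07 times as high as the next tile of the locus, and only 113 of all 1-kb tiles of the genome were higher. Without it the locus read 1.92, 2.57, 2.42 and 1.80, with the F libraries at either end. The Smo promoter window was low and uneven, at 0.909 and 3.83 in the uninjured libraries and 2.08 and 0.454 at 1 d.p.i., and in both conditions the 2 libraries differed widely.

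The co-receptors Boc, Cdon and Gas1, which present ligand to PTCH1, had locus means close to the library mean. Boc (chr16:44485049-44558897, minus strand) read 1.34 and 1.14 in uninjured M and F and 1.34 and 1.07 in injured M and F. The M libraries were level and the F libraries lower, with no separation of the conditions. The log2 difference was -0.03 ± 0.16, and it was 0.056 without uninjured M and 0.089 without injured F. Cdon (chr9:35421128-35507652, plus strand) read 1.11 and 1.17 uninjured and 0.949 and 0.954 at 1 d.p.i. Both injured libraries lay below both uninjured ones, by a log2 difference of -0.17 ± 0.15 that did not pass the test. Gas1 (chr13:60174405-60177365, minus strand), a short gene of a single exon, read 0.723 and 0.990 uninjured and 1.2 and 1.04 at 1 d.p.i. Both injured libraries lay above in coverage, while by fragments over the library mean uninjured F (1.07) lay above injured F (1.06).

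The 3 co-receptors differed more at their start sites. The Cdon promoter window was the second highest of the 10, at 6.34 and 13.1 in uninjured M and F and 8.55 and 8.04 at 1 d.p.i., and the uninjured libraries enclosed the injured ones. Its highest tile, chr9:35421001-35422000 over the start site, read 11.2, 23.6, 15.1 and 15.0 in the same order and was 4.62 times as high as the next tile of the locus. These values belong to the GENCODE start site, while the promoter that RefSeq gives for Cdon lies inside the gene, at chr9:35451826-35452125. The Gas1 promoter window read 3.74 and 5.42 uninjured and 11.1 and 6.22 at 1 d.p.i. Here too both injured libraries lay above both uninjured ones, with means of 4.58 ± 1.19 and 8.67 ± 3.47 (SD, n = 2) and a log2 difference of 0.82 ± 0.66 (SE) that did not pass the test (limma adjusted p = 1.00). It was 0.42 without injured M and 1.21 without injured F. By fragments over the library mean the F libraries were in the other order, with 7.74 uninjured and 6.28 injured, so the separation rests on the coverage measure. The Boc promoter window read 5.34 and 3.42 uninjured and 1.68 and 3.59 at 1 d.p.i., with the injured F library between the uninjured ones.

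Hhip, a membrane-bound antagonist that sequesters Hedgehog ligand, lies on chr8:79965851-80058006 (minus strand) with no other coding gene in its locus. Coverage was below the library mean throughout, at 0.889 and 0.657 in uninjured M and F and 0.742 and 0.879 at 1 d.p.i. The injured libraries fell between the uninjured ones, and the log2 difference of 0.05 ± 0.16 was -0.0077 after thinning each library to 1891276 fragments and -0.039 with 50 kb on each side. At the promoter window the injured libraries lay at the extremes, with 6.26 in M and 0.746 in F against 1.59 and 2.83 uninjured. Only 3 of 134 tiles reached 3 times the mean. The highest of them, chr8:80054001-80055000, lies in an intron 3.51 kb inside the gene and read 12, 7.50, 4.82 and 5.55 in uninjured M, uninjured F, injured M and injured F.

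Sufu, which retains GLI proteins in the cytoplasm, lies on chr19:46396896-46488804 (plus strand) between Actr1a and Trim8, both reaching into its locus. It was the member with the highest coverage, above 93.6% of all tested loci, with 4.45 and 6.98 in uninjured M and F and 5.93 and 4.53 at 1 d.p.i. The F libraries were at nearly opposite ends of the range and the groups overlapped. The log2 difference was -0.10 ± 0.34, with 0.38 in M and -0.57 in F, and it was 0.20 without uninjured F and 0.08 without injured F. Coverage was broad: 86 of 133 tiles (64.7%) reached 3 times the mean, and the flanks, at 6.61 upstream and 9.60 downstream on average, exceeded the gene body at 4.32. The promoter window read 11.6 and 20.0 uninjured and 17.3 and 6.61 at 1 d.p.i. The highest tile, chr19:46395001-46396000, is centred 1.40 kb upstream of the Sufu start site. It lies outside the Sufu gene, overlaps Actr1a and reaches only the edge of the Sufu promoter window. It read 28.8, 63.1, 64.7 and 22.6 in uninjured M, uninjured F, injured M and injured F.

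Gli1, an activator that is transcribed in response to the pathway, lies on chr10:127329882-127341974 (minus strand) in a gene-dense interval that also holds Mars, Arhgap9, Inhbe and Inhbc. Its locus read 3.17 and 3.06 in uninjured M and F and 2.22 and 2.67 at 1 d.p.i. Both injured libraries lay below both uninjured ones, and the gap was larger in M. The means were 3.11 ± 0.0784 and 2.45 ± 0.319 (SD, n = 2), and the log2 difference of -0.30 ± 0.23 (SE) did not pass the test (limma adjusted p = 1.00). It was -0.19 without injured M and -0.41 without injured F, -0.496 after thinning each library to 1891276 fragments and -0.144 with 50 kb on each side. Its highest tile, chr10:127311001-127312000, is inside Mars, 30.5 kb from the Gli1 start site, and the flank on that side averaged 3.75 against 2.85 for the Gli1 body. The Gli1 promoter window read 5.10 and 3.49 uninjured and 4.63 and 1.31 at 1 d.p.i., where only injured F stood below the others. Its log2 difference of -0.63 ± 0.69 was 0.12 without that library and -1.36 after thinning each library to 1891276 fragments.

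Gli2, the main activator among the GLI factors, lies on chr1:118834132-119053619 (minus strand) with no other coding gene in its locus. The locus read 1.21 in uninjured M, 0.900 in uninjured F, 1.71 in injured M and 1.60 in injured F, from 228, 615, 412 and 350 fragments. Both injured libraries lay above both uninjured ones, so the M and F log2 differences, 0.37 and 0.59, were bound to share a sign. The means were 1.06 ± 0.222 uninjured and 1.66 ± 0.0778 at 1 d.p.i. (SD, n = 2). The log2 difference of 0.48 ± 0.16 (SE) was above 99.3% of all tested loci and did not pass the test (limma adjusted p = 0.684). It passed only when uninjured M was left out, with 0.62 and an adjusted p of 0.0189, in a fit that called 245 of 21852 loci (131 higher and 114 lower at 1 d.p.i.) where all 4 libraries gave 15 higher and 0 lower. Over the other alternatives the adjusted p was between 0.309 and 1. In single libraries the Poisson intervals of fragments over the library mean were 1.11 to 1.44 for uninjured M and 1.38 to 1.71 for injured F, which overlap, and 0.826 to 0.969 for uninjured F and 1.55 to 1.88 for injured M.

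The Gli2 body read 1.33 and 0.964 uninjured and 1.91 and 1.79 at 1 d.p.i., while both flanks stayed under 1 in every library. The Gli2 promoter window read 1.66 and 2.61 uninjured and 5.45 and 0.731 at 1 d.p.i., with the injured libraries at the extremes. It held 4, 15, 11 and 2 fragments in uninjured M, uninjured F, injured M and injured F, too few to show whether it shared the pattern. The highest tile of the locus, chr1:119033001-119034000 in an intron 20.1 kb from the start site, read 9.57, 7.11, 4.67 and 10.3 in uninjured M, uninjured F, injured M and injured F, without separation.

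Over the 10 loci, 180 of 1346 tiles (13.4%) reached 3 times the library mean, against 6.32% in the genome, and 86 of the 180 were at Sufu. The median share was 7.83% over the 10 loci and 7.27% over all coding loci. limma called 0 of the 180, against 68 of 172298 tiles in the genome (0.0395%). At an unadjusted p under 0.05 there were 9, which is 5% of those tested against 4.11% in the genome. An intronic Gli2 tile, chr1:118976001-118977000, had the smallest p and is described here after its values were seen. It read 1.1 in uninjured M, 3.0 in uninjured F, 15.6 in injured M and 8.02 in injured F, from 1, 13, 20 and 9 fragments. Its uninjured mean was 2.05, so it passed the filter of 3 through the injured libraries. Its log2 difference of 2.31 ± 0.676 (SE) did not pass the test (limma adjusted p = 0.423). Without uninjured F it was 2.87 with an adjusted p of 0.0433, in a fit that called 677 of 172298 tiles. As the tile was picked by its p, these values are a description only. Without this tile the Gli2 locus difference was 0.46.

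**Figure D2:**
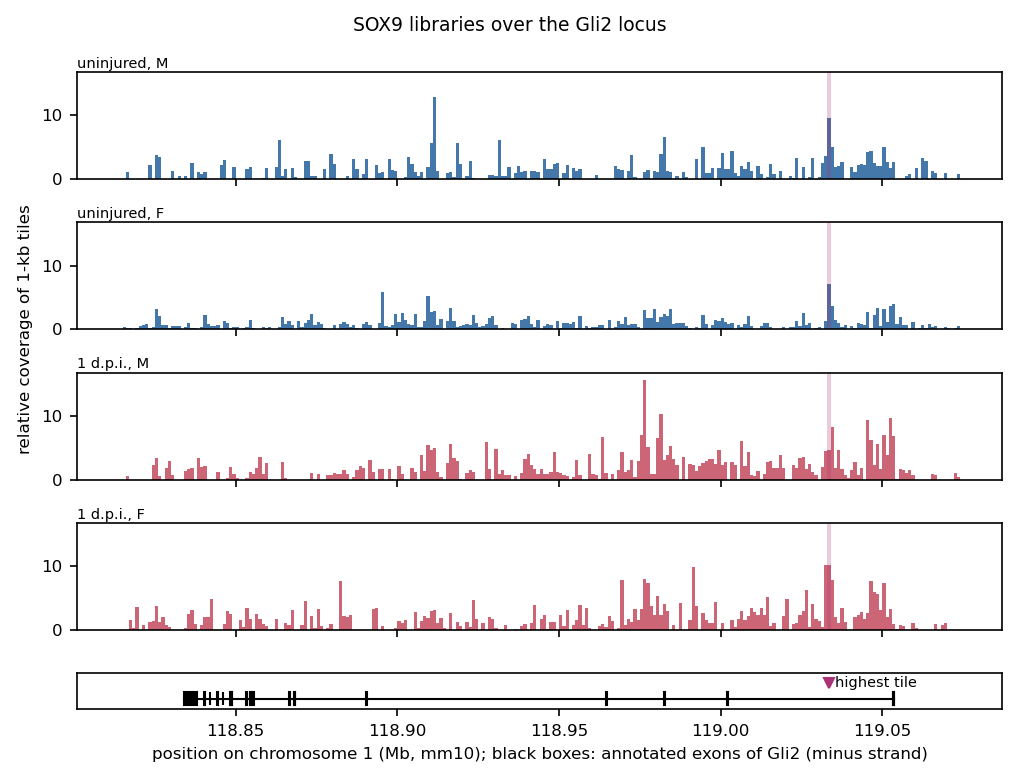
Relative coverage of 1-kb tiles (1 is the library mean) over the Gli2 locus on chromosome 1 in the 4 SOX9 libraries, with exons as black boxes and the tile of highest mean marked. The marked tile reads 9.57 and 7.11 in the uninjured libraries (M and F) and 4.67 and 10.3 in the injured ones.

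Gli3, the main repressor among the GLI factors, lies on chr13:15463235-15730026 (plus strand), the longest of the 10 genes, with no other coding gene in its locus. The locus read 0.481 in uninjured M, 0.317 in uninjured F, 0.461 in injured M and 0.516 in injured F, from 109, 265, 131 and 142 fragments. All 4 libraries lay well under the library mean, uninjured F was the lowest, and the groups overlapped. The log2 difference was 0.14 ± 0.21, with -0.03 in M and 0.31 in F. It was 0.010 without uninjured F and 0.27 without uninjured M, and only 16.5% of tested loci had a lower mean. Of 308 tiles, 2 (0.649%) reached 3 times the mean, while 37 held no SOX9 coverage in any library. The higher of the 2 covers the start site, chr13:15463001-15464000, and read 4.0, 3.4, 3.80 and 4.63 in uninjured M, uninjured F, injured M and injured F. These values were the most even of the members' highest tiles, but they rested on only 3, 9, 3 and 3 fragments in the same order. The promoter window read 2.0 and 1.96 uninjured and 2.43 and 2.95 at 1 d.p.i. Both injured libraries lay above in coverage, but by fragments over the library mean uninjured M (2.16) lay above injured M (2.15). The log2 difference of 0.36 ± 0.72 rested on 3, 10, 4 and 4 fragments and was -0.28 after thinning each library to 1891276 fragments.

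Locus profiles over the 4 SOX9 libraries were compared by Euclidean distance between values of log2(relative coverage + 0.5). The 5 genes nearest to Gli3 were Vma21-ps (0.0377), Atp8b4 (0.0535), Vrk2 (0.0583), Lrp2 (0.0702) and Ifne (0.0727). Of 21851 genes compared, 18 lay within 0.1. Lrp2, an endocytic receptor that binds Sonic hedgehog, is itself among the pathway genes counted below.

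Enhancer A4 spans chr13:15543511-15544491 (981 bp), in a 70.2 kb intron of Gli3, 80.8 kb downstream of the start site and 3908 bp from the nearest exon. It read 2.40 in uninjured M (1 fragment), 1.58 in uninjured F (6 fragments), 0 in injured M (0 fragments) and 0.838 in injured F (1 fragment). Both uninjured libraries lay above both injured ones, on 8 fragments in all, and the 4 controls held 0. The means were 1.99 ± 0.576 uninjured and 0.419 ± 0.593 at 1 d.p.i. (SD, n = 2), with a log2 difference of -1.59 and a two-sided exact permutation p of 0.333, the smallest that 2 against 2 libraries allow, so the test could not pass at any depth. A count of 0 in injured M allows up to 4.05 times the number at the library mean, and 1 fragment in injured F up to 6.49 times. The log2 difference was -2.30 without injured F and -0.88 without injured M. With 1 kb added on each side it was -0.12 on 22 fragments and the groups overlapped, with 2.1 and 1.03 in uninjured M and F and 0.775 and 2.17 in injured M and F.

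A4 stood above most of its own locus but not alone. Of 312 windows of its length laid along the Gli3 locus, 14 (4.49%) held at least 8 SOX9 fragments, and the median window held 2. These counts pool libraries of different depth, and 6 of the 8 fragments of A4 came from uninjured F, the deepest. The 1-kb tiles it overlaps ranked 110 and 9 of 308 in mean coverage, and neither reached 3 times the mean. The tile just beyond it, chr13:15545001-15546000, ranked 2, with 7.31, 1.34, 2.68 and 2.93 in uninjured M, uninjured F, injured M and injured F.

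**Figure D3:**
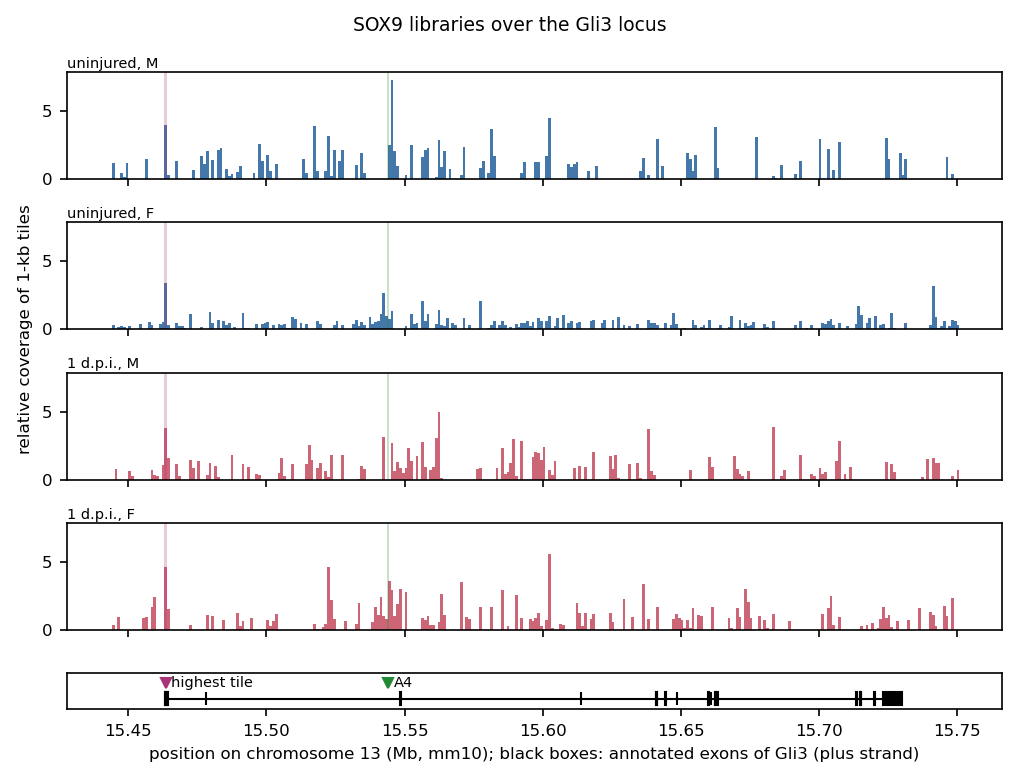
Relative coverage of 1-kb tiles (1 is the library mean) over the Gli3 locus on chromosome 13 in the 4 SOX9 libraries, with exons as black boxes and the positions of enhancer A4 and of the highest tile marked. The tile over the start site is covered in each library, at 3.4 to 4.63, and A4 is not covered in injured M.

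Genes elsewhere in the pathway gave no calls either. Of 36 further genes tested at their loci, limma called 0, against 15 of 21852 over all genes. At an unadjusted p under 0.05 there was 1, against 654 (2.99%) of all loci. Of the 36 genes 13 were above 0 and 23 below, against 9977 and 11875 over all genes. The median log2 difference was -0.10 against -0.02 over all genes. The median was -0.08 for 6 ligands and release factors (2 above 0), with Dhh highest in coverage at 4.22 and Hhat lowest at 1.2. It was -0.16 for 5 reception genes (2 above 0), from Mgrn1 at 6.35 to Gpc3 at 0.323, and -0.18 for 11 genes of the cilium and signal transduction (2 above 0), from Grk2 at 6.14 to Evc2 at 0.961. For 5 kinase and degradation genes (1 above 0) it was -0.09, with Prkaca at 5.09 and Spop at 1.87. For 9 GLI target genes (6 above 0) it was 0.04, from Foxm1 at 3.07 to Foxa2 at 0.418.

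The GLI targets held both extremes of the differences. Mycn, a proliferation-associated transcription factor, read 0.337 and 0.796 in uninjured M and F and 0.577 and 0.916 at 1 d.p.i. The groups overlapped, and the log2 difference of 0.25 ± 0.17 was -0.070 without uninjured M. Ccnd1, which encodes the G1 cyclin D1, read 2.93 and 3.95 uninjured and 2.79 and 1.80 at 1 d.p.i. Both injured libraries lay below, mostly in F, with a log2 difference of -0.51 ± 0.23 that did not pass the test (limma adjusted p = 1.00). It ranged from -0.77 without injured M to -0.25 without injured F. Without uninjured M, the fit that called 245 of 21852 loci, it was -0.70 with an adjusted p of 0.0169, while over its other alternatives the adjusted p was between 0.561 and 1.

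Markers of the cell types in the cord were read in the same way, and limma called 0 in any list, against 15 of 21852 loci. At an unadjusted p under 0.05 there was 1 infiltrating myeloid gene, against 2.99% of all loci. Of 7 astrocyte markers 6 lay above 0, with a median log2 difference of 0.20. Over all loci 9977 of 21852 lay above 0, with a median of -0.02. Their summed locus coverage was 10.5 and 10.0 in uninjured M and F and 13.1 and 12 at 1 d.p.i. The median level of the astrocyte markers was 1.41, against 1.49 over all loci, from Gfap at 3.10 to Gja1 at 0.529. The endothelial sums were also higher at 1 d.p.i., with 3.11 and 3.14 against 3.26 and 3.55, and the fibroblast sums lower, with 3.39 and 3.02 against 2.5 and 2.66. The sums of these 3 of 8 lists lay apart between conditions. Single loci did so in 12.4% (higher) and 11.9% (lower) of cases, Gli2 among them. A sum over several genes is not a single locus, so these shares are no reference for the sums. The part of these cell types in the Gli2 values was not tested. The medians were 0.03 for 4 ependymal (2 above 0), 0.15 for 4 infiltrating myeloid (3 above 0) and 0.15 for 3 endothelial markers (2 above 0). They were -0.13 for 6 oligodendrocyte lineage (2 above 0) and -0.07 for 5 microglia and macrophage markers (2 above 0). For 5 neuron (0 above 0) and 3 fibroblast markers (0 above 0) they were -0.12 and -0.15. The highest single level was that of Sox10, at 9.76, and no marker was at 0.

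The members' promoter windows were richer in G and C than most, with a median of 58.6% against 51.2% over all coding genes, and a median observed over expected CpG ratio of 0.652 against 0.474. Gli3 (63.4% and 0.885) and Gas1 (65.1% and 0.876) were the highest of the 10 in both measures. The Gli3 promoter of 300 bases in RefSeq, GRCm38.p6 coordinates on the plus strand, is shown because it underlies the locus's highest tile. Capitals mark CG, and 71% of its bases are G or C. It read 2.59, 3.78, 3.56 and 6.45 in uninjured M, uninjured F, injured M and injured F, from 1, 4, 2 and 3 fragments.
Gli3 promoter chr13:15463473-15463772: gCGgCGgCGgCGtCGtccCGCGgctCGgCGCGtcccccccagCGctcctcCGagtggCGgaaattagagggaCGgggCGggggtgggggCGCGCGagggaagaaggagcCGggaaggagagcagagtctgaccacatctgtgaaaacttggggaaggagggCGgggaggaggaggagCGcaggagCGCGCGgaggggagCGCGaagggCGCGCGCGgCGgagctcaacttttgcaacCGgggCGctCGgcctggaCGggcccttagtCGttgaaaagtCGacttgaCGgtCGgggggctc

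Letters of 4 kinds of binding motif were searched on both strands: SOX (ACAAAG and ACAATG), AP-1 (TGANTCA), NFI (TTGGCA) and GLI (GACCACCCA). A match is a description of the letters and not a site. ACAAAG was found in 7 of 10 promoter windows, against 77.1% of all coding promoters, and in 5 of 10 highest tiles, against 55.1% of tested tiles. ACAATG was found in 3 promoter windows (55.0% of all) and 2 highest tiles (36.1%), TTGGCA in 1 (60.7%) and 3 (42.0%), and TGANTCA in 2 (37.3%) and 1 (25%). RefSeq promoters of 300 bases matched 8 of 10 members, and 1 of them, Smo, held ACAAAG, against 18.7% of all.

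The GLI letters occurred in 1 of 10 promoter windows, that of Ptch1, against 1.70% of all coding promoters, and in 0 highest tiles. The match lies on the minus strand at chr13:63573465-63573473, within an annotated UTR. The 30 bases around it are given on the plus strand, with the reverse complement of GACCACCCA in capitals. They were covered by 1, 5, 2 and 0 fragments in uninjured M, uninjured F, injured M and injured F.
Ptch1 GLI letters chr13:63573455-63573484: gccctcggcgTGGGTGGTCtgccgcgccat

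A4 held 1 ACAAAG, on the minus strand at chr13:15544073-15544078, and none of the other letters. Windows of its length within tested tiles held ACAAAG in 54.4% of cases. Its 300 bases around the match are printed on the plus strand, with the reverse complement CTTTGT in capitals. They held 1 and 4 fragments in uninjured M and F and 0 in both injured libraries.
A4 chr13:15543926-15544225: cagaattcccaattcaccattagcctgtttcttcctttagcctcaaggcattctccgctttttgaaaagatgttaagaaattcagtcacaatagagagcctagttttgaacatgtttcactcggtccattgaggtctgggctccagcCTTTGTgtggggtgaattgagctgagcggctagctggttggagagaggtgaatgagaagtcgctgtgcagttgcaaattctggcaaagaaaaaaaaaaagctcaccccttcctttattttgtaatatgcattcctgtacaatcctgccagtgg

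Intronic stretches of Hhip and Boc are shown as covered stretches outside the promoter windows, both on the plus strand of GRCm38. In the Hhip stretch capitals mark the SOX letters, both read from the minus strand. It read 14, 15.9, 12.7 and 8.99 in uninjured M, uninjured F, injured M and injured F, from 6, 21, 5 and 4 fragments. In the Boc stretch capitals mark 1 SOX match (ACAATG) and 2 NFI matches, and it read 3.77, 17.3, 10.1 and 2.9 in the same order, from 1, 18, 5 and 1 fragments. Both stretches also held 1 control fragment, in uninjured F, and 0 in the other controls.
Hhip intron chr8:80054233-80054532: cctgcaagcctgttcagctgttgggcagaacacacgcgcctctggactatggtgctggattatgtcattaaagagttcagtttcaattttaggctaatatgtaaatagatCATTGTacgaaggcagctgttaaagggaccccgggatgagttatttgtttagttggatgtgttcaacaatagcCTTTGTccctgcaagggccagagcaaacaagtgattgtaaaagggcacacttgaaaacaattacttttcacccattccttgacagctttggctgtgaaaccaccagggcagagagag
Boc intron chr16:44493513-44493812: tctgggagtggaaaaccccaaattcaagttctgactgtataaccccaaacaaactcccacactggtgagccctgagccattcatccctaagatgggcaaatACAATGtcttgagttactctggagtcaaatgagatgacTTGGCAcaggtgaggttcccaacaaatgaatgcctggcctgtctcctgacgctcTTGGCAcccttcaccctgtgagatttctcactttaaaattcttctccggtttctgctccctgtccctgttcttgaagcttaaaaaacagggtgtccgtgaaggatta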

How the data were processed

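SOX9 CUT&Tag was measured in 8 libraries of mouse spinal cord nuclei, with 2 libraries in each of 4 groups taken from the labels. The authors demultiplexed reads with deML, mapped pairs to mm10 with Bowtie2 2.5.4 and removed duplicates with Picard 3.4.0. The step that wrote the deposited signal is not given in the sources used here. From its pattern it was read as the coverage depth of each library, in whole fragments and not scaled for depth, and all values rest on this reading. The authors called peaks with SEACR 1.3, which was not run here.

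Each rise of the coverage was counted as a fragment. Windows came from GENCODE M21 on GRCm38, and coverage was divided by the library mean over chromosomes 1 to 19, X and Y. limma 3.58.1 in R 4.3.3 (lmFit, eBayes with trend) was fitted to log2(relative coverage + 0.5) of the 4 SOX9 libraries, with Benjamini-Hochberg adjustment over all features with a mean of at least 0.1 (loci, gene bodies), 0.5 (promoters) or 3 (1-kb tiles). All 10 members passed these filters in each window. Adjusted p under 0.05 was called. A4 was compared by an exact permutation test, and controls by exact Poisson intervals. Other steps used Python 3.11.15, numpy 2.4.6, pandas 2.3.3, scipy 1.17.1 and matplotlib 3.10.9.

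All 10 members were named. Other pathway genes and markers were named where they had the highest or lowest coverage or difference of their list, and tiles where they had the highest mean of a locus. The differences of the highest tiles are therefore descriptions. The members and lists were chosen with earlier results of these data known. M and F mark sex, so each pair is of different animals, and p-values rest on 2 libraries per group. Alternatives covered scaling, pseudocount, filter, trend, windows, depth, a replicate block, all 4 groups in the fit and each library left out.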

Additional observations from a re-analysis of the deposited data

Results flagged for a closer look

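At 6 loci the M sample and the F sample differed between conditions in opposite directions, and none of these differences between the sexes was tested, since each sex had 1 library per condition. The M log2 difference minus the F log2 difference was -0.34 at Gli3, 0.39 at Ptch1, -0.27 at Smo, 0.065 at Boc, -0.41 at Hhip and 0.95 at Sufu. Opposite signs occurred at 66.4% of all tested loci.

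At 7 promoter windows the M and F differences were also of opposite sign, again untested. M minus F was 2.80 at Gli2, 1.34 at Ptch1, 3.05 at Smo, -1.49 at Boc, 1.07 at Cdon, 3.11 at Hhip and 2.09 at Sufu, all on the log2 scale. The largest, at Hhip, rested on 3, 16, 13 and 2 fragments in uninjured M, uninjured F, injured M and injured F. That at Smo rested on 1, 21, 5 and 1 in the same order. Over all tested promoter windows 64% had opposite signs, and the median difference was 0.41 in M and -0.54 in F.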

How the results depend on the processing

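The count of 15 called loci was 0 with trimmed mean scaling, 0 without the mean-variance trend, 0 with all 4 groups in the fit and 3 with a replicate block for sex. Leaving out single libraries, where the lone library of a condition is taken to vary like the other condition, gave 2 to 245, with 245 without uninjured M, 215 without uninjured F, 2 without injured M and 3 without injured F. The 1 called promoter became 0 with trimmed mean scaling, all 4 groups, no filter or 500 bp on each side, 2 with the start of the transcript with the longest coding sequence, and 0 to 0 when any SOX9 library was left out. The 0 called gene bodies became 3 with trimmed mean scaling and 239 with the replicate block, where limma called 0 of 10 members (smallest adjusted p 0.848). The 68 called tiles became 24 with trimmed mean scaling, 0 without the trend, 25 with the replicate block, 0 with all 4 groups, 19 with each library thinned to 1891276 fragments (not to equal coverage, since fragment lengths differ), 36 at a mean of at least 5 and 44 as 2-kb tiles. They ranged from 7 without injured F to 677 without uninjured F. The cause of these changes was not tested. Trimmed mean scaling moved the median difference of all loci from -0.02 to -0.05. M minus F in the conditions correlated across the 21852 loci with r of -0.383, and loci are not independent replicates. M and F were not treated as repeated measures of an animal.

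Of 341 alternative values of the members' locus and promoter differences, 261 left all libraries in. Of these 9 turned sign: the Hhip locus (-0.0077 thinned, -0.039 with 50 kb on each side), the Gli2 promoter (-0.023 with a pseudocount of 0.1), the Gli3 promoter (-0.28 thinned), the Ptch1 and Cdon promoters (-0.51 and 0.36 with the start of the transcript with the longest coding sequence) and the Hhip promoter (-0.56 thinned, -0.82 with 500 bp and -0.17 with 2 kb on each side). Of 80 values with a library left out, 18 turned sign. Their ranges were -0.021 to 0.20 for the Ptch1 locus, -0.28 to 0.056 for Smo, -0.14 to 0.089 for Boc, -0.086 to 0.18 for Hhip, and -0.40 to 0.20 for Sufu. For Mycn, outside the members, the range was -0.070 to 0.56. At promoters they were -1.39 to 0.12 for Gli1, -1.07 to 1.2 for Gli2, -0.015 to 0.99 for Ptch1, -1.46 to 0.16 for Smo, -0.63 to 0.36 for Cdon, -1.08 to 1.36 for Hhip and -1.14 to 0.18 for Sufu. The cause was not tested. The other members kept their sign, at -0.41 to -0.19 for the Gli1 locus, 0.33 to 0.62 for Gli2, 0.010 to 0.27 for Gli3, -0.20 to -0.15 for Cdon and 0.12 to 0.40 for Gas1, and at 0.24 to 0.48 for the Gli3 promoter, -1.14 to -0.23 for Boc and 0.42 to 1.21 for Gas1. The members' median locus difference of 0.01 was -0.022 with trimmed mean scaling, -0.0088 thinned and -0.025 with 50 kb on each side, and -0.082 to 0.084 with a library left out. Their median promoter difference was -0.522 to -0.0094 with all libraries in and -0.65 to 0.34 with a library left out. The Gli1 locus, with all libraries in, was -0.496 thinned and -0.144 with 50 kb on each side. Of the members' locus and promoter differences 1 passed the threshold under any alternative, the Gli2 locus without uninjured M (0.62), in a fit that called 245 of 21852 loci. The Gli2 tile of smallest p had a log2 difference of 2.87 without uninjured F. This tile was picked by its p and passed the filter of 3 through the injured libraries, so the value is a description only.

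The A4 difference was -1.64 to -0.12 over the alternatives and -2.30 to -0.88 with a library left out. Thinned, it rested on 1 fragment, in uninjured M, and with 1 kb on each side the groups no longer lay apart, so its sign says little. The 0 loci with separate SOX9 and control intervals was 0 without each control. At promoter windows it was also 0, where for 8 of 10 genes the controls held 0 fragments and the intervals could not lie apart. Both counts pool the libraries. Within the injured F sample the intervals of the Sufu locus and promoter window lay apart, with the control higher. Promoter windows and left-out controls in the pooled comparison were alternatives chosen after seeing the data. So were loci without their highest tile or without the Gli2 tile of smallest p. The controls' depth limits any comparison with the SOX9 libraries, as does the match of 90.7% of their isolated fragments in the 10 loci to SOX9 fragments, whose cause was not tested. Promoter values rest on few fragments.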
